A study of Mus musculus with 26 samples.

Results

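The genes described here form the core OCT4-SOX2 circuit of mouse embryonic stem cells. There were 10 of them, chosen by name among 21951 annotated protein-coding genes: the core factors Pou5f1 and Sox2, the nuclear regulators Sall4, Utf1 and Tfap2c, the pluripotency and germ line genes Dppa3, Dppa4, Dppa5a and Tcl1, and the RNA-binding gene Lin28a. The question was how far the chromatin around them had changed 4 h after the cells were pushed out of pluripotency. To each gene were joined all ATAC-seq peaks and all dynamic enhancer regions within 120 kb of its annotated ends on GRCm38, a distance that takes in the distal control elements of Sox2.

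Both groups were E14 cells, a mouse embryonic stem cell line, grown without feeder cells in medium with serum and leukemia inhibitory factor (LIF). In mESC+ the medium was renewed with LIF, and in mESC− LIF was left out and 1 µM retinoic acid (RA) was added, in both cases 4 h before harvest. Used here were 2 ATAC-seq libraries (1 per state), the enhancer probabilities that the CRUP method derived from 8 ChIP-seq libraries (H3K4me1, H3K4me3, H3K27ac and input in each state), and a list of genes from 6 RNA-seq libraries (3 per state). With 1 accessibility library and 1 set of probabilities per state there was no replicate check, so every difference below compares 2 libraries or 2 sets and carries no p-value. All are bulk samples, in which fewer cells with an open region and a less open region in every cell cannot be told apart, and likewise fewer cells of a type and less RNA per cell.

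OCT4, the product of Pou5f1, is a POU domain factor that reads an octamer, and SOX2 is an HMG-box factor that reads a short neighbouring motif. In embryonic stem cells both bind side by side to composite elements, among them elements near their own genes, so that the circuit feeds back on itself. Loss of OCT4 or SOX2 ends self-renewal, and RA is a classic signal for leaving pluripotency. Best known among the composite elements are the distal enhancer upstream of Pou5f1, an element shortly downstream of Sox2, the element that follows Utf1, and the one in the promoter of Nanog.

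The match to such an element was searched as the octamer ATTTGCAT directly followed by AACAAAG, 15 letters read on both strands, with at most 3 mismatches. It lay inside 9 of the 469 accessible regions around the genes. Shown here are 6 of them, those next to Pou5f1, Sox2, Utf1, Dppa3 and Nanog and the one with the lowest ratio, upstream of Tfap2c, each with 40 bases of flank on the strand of the match, the matched letters in capitals, from GRCm38.p6.
Pou5f1, 1.96 kb upstream, chr17:35504009-35504103 (+): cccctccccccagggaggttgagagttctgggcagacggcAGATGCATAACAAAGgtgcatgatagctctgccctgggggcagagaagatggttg
Sox2, 3.65 kb downstream, chr3:34654009-34654103 (−): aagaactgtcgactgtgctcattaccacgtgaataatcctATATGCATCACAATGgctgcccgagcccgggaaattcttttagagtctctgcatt
Utf1, 1.90 kb downstream, chr7:139945641-139945735 (+): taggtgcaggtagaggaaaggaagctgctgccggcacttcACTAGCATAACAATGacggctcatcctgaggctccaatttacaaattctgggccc
Dppa3, 1.72 kb upstream, chr6:122624641-122624735 (+): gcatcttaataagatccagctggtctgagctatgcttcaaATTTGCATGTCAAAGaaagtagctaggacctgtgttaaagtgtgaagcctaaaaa
Nanog promoter in the Dppa3 window, chr6:122707373-122707467 (+): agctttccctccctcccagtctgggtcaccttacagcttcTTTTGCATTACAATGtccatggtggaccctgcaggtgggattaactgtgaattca
Tfap2c, 50.6 kb upstream, chr2:172498989-172499083 (+): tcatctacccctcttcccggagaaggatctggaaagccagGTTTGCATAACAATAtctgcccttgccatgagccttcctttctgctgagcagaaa

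Each of these 9 regions held a peak in both states. Around them the fold enrichment, the height of a peak over its local background as MACS2 gives it, was compared as the log2 ratio of mESC− to mESC+, centered on the median of all regions shared by the lists. On that scale 8 of the 9 regions lay above 0 and 1 below, with a median of 0.28 and a range from −0.63 to 0.71. The background was counted by another rule, a match within 300 bp around the summit. By that rule 10 shared regions around the genes had a match, 9 above 0 and 1 below. Among all 3856 such shared regions, 1954 lay above 0 and 1902 below. None of the 9 regions with the match inside reached a 2-fold difference, and in all of them accessibility was still called after 4 h of RA without LIF.

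At the distal enhancer position of Pou5f1 (chr17:35503887-35504313, intergenic) the fold enrichment was 5.07 in mESC+ and 6.15 in mESC−, a centered log2 ratio of 0.37. The match there had 2 mismatches. At the Sox2 element (chr3:34653955-34654142, inside an intron of the noncoding gene Sox2ot) the values were 5.73 and 6.43, a ratio of 0.26. At both core genes the fold enrichment of the composite region was thus a little higher in mESC− than in mESC+. Downstream of Utf1 (chr7:139945559-139945877) the fold enrichment was 6.76 in mESC+ and 8.19 in mESC−, a ratio of 0.37. Upstream of Dppa3 (chr6:122624392-122624900) it was 11.1 and 11.8, a ratio of 0.18. This was the strongest of the 9 regions in both states. The Nanog promoter region (chr6:122707354-122707587) had 4.37 and 4.45, the smallest change of the 9 with a ratio of 0.12.

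The exception lay 50.6 kb upstream of Tfap2c (chr2:172498869-172499080, intergenic), where the fold enrichment was 9.54 in mESC+ and 5.78 in mESC−, a centered log2 ratio of −0.63. Its percentile, the rank by fold enrichment within its own list with 100 as the highest, was 73.8 in mESC+ and 36.9 in mESC−. Its nearest protein-coding start was that of Fam209, not of Tfap2c. The largest ratio upward, 0.71, belonged to a region in an intron of Mfap5, 112 kb upstream of Dppa3, with 5.62 in mESC+ and 8.60 in mESC−. The nearest protein-coding start there was that of Mfap5. The remaining 2 regions lay 117 kb downstream of Utf1 (6.98 and 7.94) and 8.30 kb downstream of Dppa5a (3.26 and 4.10), and both were higher in mESC−.

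Composite matches as such were not frequent here. Within 300 bp around the summit, 11 of 469 regions held one (2.35%, exact 95% interval 1.18 to 4.16), against 2.96% of the 179949 merged regions that could be searched. The exact octamer lay in 1.07% (0.347 to 2.47), against 2.81% of all regions. Of the 11 regions with a composite match, 10 were in both lists and 1, at 109 kb downstream of Dppa4 (chr16:48392905-48393002, fold enrichment 5.05), in the mESC+ list alone. Its match lay outside the merged region, so it is not among the 9. By comparison, 72.4% of all 5327 regions with a match were shared, with a median centered log2 ratio of 0.00. These intervals, like all intervals here, cover counting error only.

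**Figure D1:**
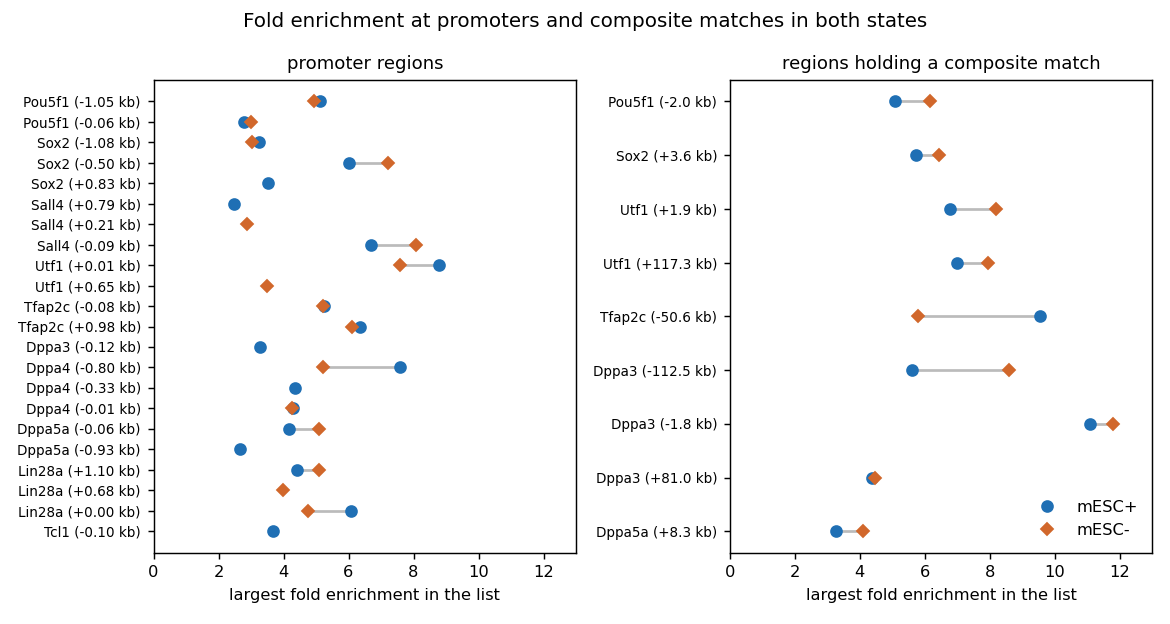
Fold enrichment (x axis, largest peak of the region in each list) in mESC+ (circles) and mESC− (diamonds), for the 22 promoter regions (left) and the 9 regions with a composite match inside (right), each named by gene and by distance of its summit from the gene's start. A lone symbol is a region held in 1 list; at the composite matches both symbols are present in all 9 regions, and only the Tfap2c region lies clearly lower in mESC−.

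Promoters were read as 1000 bp to either side of the start of the principal protein-coding transcript. For 8 of the 10 genes a peak lay there in both lists, against 66.4% of all protein-coding genes. For Dppa3 and Tcl1 a peak was called in mESC+ alone, a state found for 1.96% of protein-coding genes. Both peaks were among the weakest of their list. Dppa3, which encodes a maternal factor that guards DNA methylation in the early embryo, had a fold enrichment of 3.26 (percentile 1.23) at chr6:122626201-122626362. Tcl1, a coactivator of the kinase AKT, had 3.68 (percentile 3.88) at chr12:105222770-105222873. At that height the absence of a peak in mESC− is not a measured loss. Both genes dropped out of the mESC+ list too when that list was shortened to the 141465 peaks of the mESC− list, which left 8 genes with a promoter peak in either list.

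By fold enrichment over local background, promoter peaks of the circuit were low in general. The strongest shared promoter region had a median percentile of 45.0 in mESC+ and 35.2 in mESC− over the 8 genes that had one, against 80.4 and 78.7 over 14548 protein-coding genes. At Pou5f1 the region over the start (chr17:35505885-35506064) had a fold enrichment of 2.78 in mESC+ and 2.99 in mESC−. A wider region 1.06 kb upstream (chr17:35504593-35505290), still inside the promoter window, had 5.12 and 4.95. Neither moved by more than 0.20 on the centered log2 scale. Their −log10 p, the significance that MACS2 gives a peak, was 7.80 and 7.72 over the start and 26.9 and 20.7 upstream. Promoters were not ranked by that measure. At Sox2 the region 0.501 kb upstream (chr3:34649763-34650129) had 6.01 in mESC+ and 7.20 in mESC−, a ratio of 0.35. A weak region 1.08 kb upstream had 3.24 and 3.03, and one over the Sox2 exon (chr3:34650887-34651331) had 3.53 in mESC+ and no peak in mESC−.

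Since accessible chromatin was called over the promoters of both core factors in both states, their reference sequences from RefSeq (GRCm38.p6, 250 bases before to 50 after a start) are given, with the hexamer AGGTCA, the motif of nuclear receptors such as the RA receptors, in capitals on either strand. RefSeq places the Sox2 start upstream of the one used for the distances above. Its entry for Sox2 and the upstream one of 2 for Pou5f1 are shown.
Pou5f1, chr17:35505782-35506081 (+): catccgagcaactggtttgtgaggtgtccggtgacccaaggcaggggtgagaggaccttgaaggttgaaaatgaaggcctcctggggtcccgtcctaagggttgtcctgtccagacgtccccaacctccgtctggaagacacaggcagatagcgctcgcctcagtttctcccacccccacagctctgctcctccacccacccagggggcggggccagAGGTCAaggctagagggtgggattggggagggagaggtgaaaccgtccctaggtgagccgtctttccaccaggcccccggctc
Sox2, chr3:34649745-34650044 (+): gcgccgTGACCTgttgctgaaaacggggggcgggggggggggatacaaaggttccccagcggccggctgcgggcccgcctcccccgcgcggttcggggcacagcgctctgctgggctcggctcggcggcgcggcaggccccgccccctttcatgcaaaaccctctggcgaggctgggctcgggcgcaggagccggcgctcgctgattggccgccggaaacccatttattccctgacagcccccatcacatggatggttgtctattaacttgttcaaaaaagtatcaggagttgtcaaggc

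Of the 10 genes 5 had a RefSeq promoter, with 6 starts in all, and 2 of these 6 windows held the hexamer, against 16.3% of 32851 promoters of the same length. None held the exact octamer, which 1.74% of all promoters held, and 1 held the SOX motif ACAAAGG, against 5.88%. The GC content was 62.7% in the Pou5f1 window and 66.3% in the Sox2 window. A match says only that the letters are there.

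Among the other nuclear regulators, Sall4, a zinc finger factor that partners OCT4, had a shared promoter region (chr2:168767133-168767385) with 6.70 in mESC+ and 8.08 in mESC−, a ratio of 0.36. Utf1, a chromatin-bound protein of pluripotent cells, had 8.77 and 7.59 over its start (chr7:139943637-139944180), a ratio of −0.11 and the highest promoter peak of the circuit in mESC+. Tfap2c, an AP-2 factor of trophoblast and germ line, had 5.26 and 5.20 at its start and 6.37 and 6.10 in a region 0.983 kb downstream, with ratios of 0.08 and 0.03. Of these promoters the one of Tfap2c was the most even between the states. The composite region with the largest downward ratio lay in the same window, but nearer to the start of Fam209.

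Dppa4, a SAP domain protein encoded beside its partner Dppa2, had the promoter region with the largest downward ratio. Its region 0.800 kb upstream (chr16:48282810-48283079) had a fold enrichment of 7.58 in mESC+ and 5.21 in mESC−, a ratio of −0.45. The region over the Dppa4 start changed little, from 4.30 to 4.26. At Dppa5a, which encodes a KH domain RNA-binding protein, the region 0.057 kb upstream had 4.17 and 5.08, the largest upward ratio of any promoter region at 0.38. Lin28a encodes the RNA-binding protein that blocks let-7 maturation. Its start region (chr4:134018747-134019098) had 6.08 in mESC+ and 4.75 in mESC−, a ratio of −0.26, while a region 1.10 kb into the gene had 4.42 and 5.09, a ratio of 0.30. The 13 promoter regions held in both lists thus had ratios in both directions, from −0.45 to 0.38. The other 9 of the 22 promoter regions had a peak in 1 list alone and so no ratio. Beside those of Sox2, Dppa3 and Tcl1 described above, they were regions of mESC+ alone 0.790 kb into Sall4 (2.48), 0.326 kb upstream of Dppa4 (4.35) and 0.925 kb upstream of Dppa5a (2.67), and of mESC− alone 0.213 kb into Sall4 (2.89), 0.646 kb into Utf1 (3.49) and 0.676 kb into Lin28a (3.98). All 9 had a fold enrichment under 4.5.

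Over the whole windows, 469 merged regions (peaks of both lists joined wherever they shared at least 1 bp) were counted among 180036. Both lists held 314 of them, or 67.0% (62.5 to 71.2), against 65.3% of all regions. The mESC+ list alone held 113 (24.1%, 20.3 to 28.2), against 23.7% of all. The mESC− list alone held 42 (8.96%, 6.53 to 11.9), against 11% of all. The mESC+ list was the longer of the pair, with 163484 peaks against 141465, and the sequencing depth of the libraries is unknown. The shares around the circuit were thus close to those of the genome.

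Of the 155 regions held in 1 list alone, 0 reached percentile 75 of their list, against 0.449% of the 62516 such regions in all. The fold enrichment of the 113 regions of mESC+ alone ran from 2.48 to 8.98 with a median of 4.53, and that of the 42 regions of mESC− alone from 2.89 to 8.33 with a median of 4.60. Their median percentiles were 18.0 and 15.3, against 51.7 in mESC+ for the regions in both lists. Over all regions the medians were 26.3 for mESC+ alone, 18.9 for mESC− alone and 62.6 for the regions in both lists, so that weak peaks in 1 list alone were the pattern of the genome as well. Of the regions at percentile 75 or more in either list, 89 of 89 around the circuit were in both lists, against 99.4% of 45981 in all.

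Of the 314 shared regions, 1 was at least 2-fold lower in mESC− and 0 were at least 2-fold higher, against 0.359% and 0.326% of all 117520 shared regions. The median centered log2 ratio was 0.02, with quartiles of −0.18 and 0.20, against −0.21 and 0.19 for all shared regions. Between −0.5 and 0.5 lay 285 of 314 (90.8%), against 86.9% of all. The only region past 2-fold lay in an intron of Ddx43, 51.2 kb upstream of Dppa5a (chr9:78419281-78419533), with a fold enrichment of 11.7 in mESC+ and 5.33 in mESC−, a ratio of −1.04. Next downward came a region 33.6 kb downstream of Tcl1, with 10.7 and 5.93 (ratio −0.75), and one 37.0 kb downstream of Pou5f1, with 8.84 and 4.93 (ratio −0.75). The nearest protein-coding starts of these regions were those of Ddx43, Tcl1b3 and Cdsn, not of the circuit.

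The largest upward ratios were 0.91 at 116 kb upstream of Utf1 (5.05 and 8.89), 0.87 at 47.3 kb upstream of Tfap2c (4.15 and 7.12) and 0.73 at 97.05 kb upstream of Lin28a (3.73 and 5.80). The Tfap2c window thus held both the largest ratio downward at a composite match and one of the largest upward close by. Both regions had their nearest protein-coding start at Fam209. Between them lay a peak of mESC− alone (chr2:172499234-172499332) with a fold enrichment of 4.96.

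**Figure D2:**
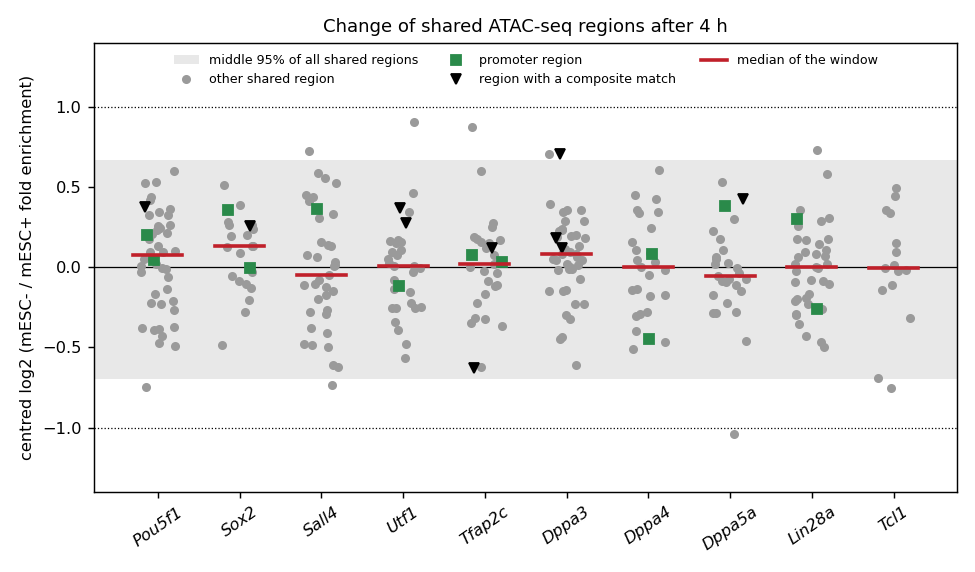
Centered log2 ratio of fold enrichment, mESC− over mESC+ (y axis), for each of the 314 shared regions within 120 kb of the 10 genes (x axis), with promoter regions as squares, regions with a composite match within 300 bp around the summit as triangles and the median of each window as a red line. The grey band holds the middle 95% of all shared regions and the dotted lines mark 2-fold; 1 point, in the Dppa5a window, lies past them.

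By gene, the share of regions in both lists ran from 50% at Sox2 to 83.8% at Utf1, with 81.5% at Pou5f1. Pou5f1 had 44 regions in both lists, 8 in mESC+ alone and 2 in mESC− alone. Sox2 had 23, 20 and 3. The share in mESC+ alone was 14.8% at Pou5f1 (6.62 to 27.1) and 43.5% at Sox2 (28.9 to 58.9), and those intervals did not overlap. Among the windows of 15799 protein-coding genes with at least 20 regions, 99.6% had a smaller share in mESC+ alone than Sox2, and 14.3% a smaller one than Pou5f1. Neighbouring windows share regions, so this is a description. The difference between the core factors depended on the peaks counted. With peaks of −log10 q of at least 10 the share was 26.9% at Pou5f1 and 35.3% at Sox2. Among the 50000 peaks with the largest fold enrichment of each list it was 18.2% at Pou5f1 and 14.3% at Sox2. That opposite order rests on only 11 regions at Pou5f1 and 7 at Sox2.

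The 20 regions of the Sox2 window in mESC+ alone were low in fold enrichment, between 2.91 and 8.41 with a median of 4.72. The highest by that measure lay 66.3 kb downstream (chr3:34716632-34716755). By −log10 q the highest was the region 106 kb downstream (12.4, fold enrichment 4.21), followed by that at 66.3 kb (11.9). Of the 7 regions left around Sox2 among those 50000 peaks, 1 was in mESC+ alone. With the mESC+ list shortened to the length of the mESC− list the share was 33.3%. In the opposite direction, the strongest of the 3 regions in mESC− alone lay in an exon of Sox2ot, 28.7 kb downstream (chr3:34678898-34679190), with a fold enrichment of 8.33 and a percentile of 68.5, the highest of any region of the circuit held in mESC− alone.

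The strongest regions outside promoters were ranked by the mean of both percentiles, a missing peak counting as 0, so that the ranking itself favours regions in both lists. In the Sox2 window the highest was a region 94.98 kb downstream (chr3:34745182-34745549), with a fold enrichment of 17.1 in mESC+ and 18.5 in mESC−. It was followed by one 74.1 kb upstream in Sox2ot (17.1 and 17.6) and one 84.7 kb downstream (17.5 and 13.5). The next were 34.7 kb upstream (10.1 in both states) and 18.2 kb downstream (9.73 and 8.94). In the stretch further out that is known as the distal control region of Sox2 in embryonic stem cells, 3 shared regions lay 108 kb, 110 kb and 111 kb downstream. A further region there, 106 kb downstream (chr3:34756637-34756802), was in mESC+ alone, with a fold enrichment of 4.21 and a −log10 p of 14.9. All were lower in fold enrichment than the strongest regions just named. At 108 kb the values were 5.20 and 5.84, at 110 kb 3.79 and 3.42, and at 111 kb 6.60 and 7.41. By −log10 p the order was different. The region at 111 kb (33.6 and 34.4) stood above those 34.7 kb upstream (18.1 and 17.6) and 18.2 kb downstream (32.4 and 30.0). It stayed below the 3 highest. The region at 108 kb (22.5 and 23.4) stood above the one 34.7 kb upstream alone, and that at 110 kb (12.5 and 8.72) above none. The largest downward ratio of the shared regions around Sox2 was −0.48, at 78.0 kb downstream (11.1 and 7.43). No protein-coding gene other than Sox2 lay in the window.

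**Figure D3:**
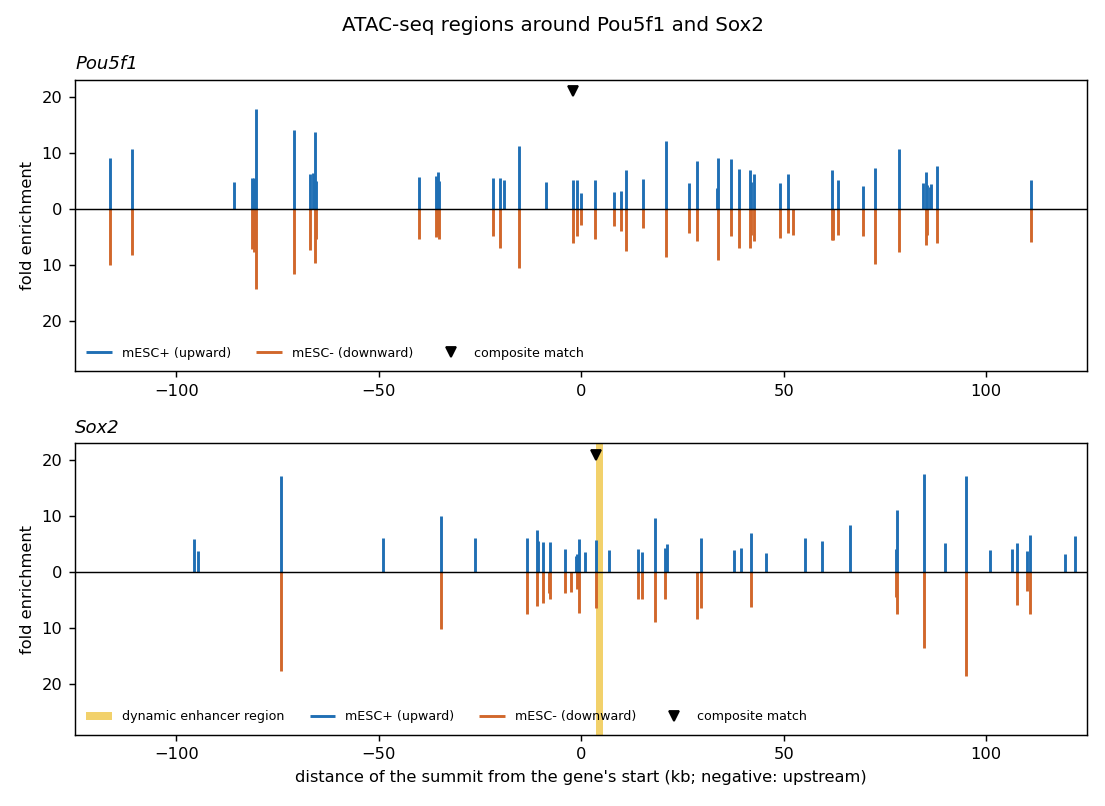
Fold enrichment (y axis) of each merged ATAC-seq region within 120 kb of Pou5f1 (top) and Sox2 (bottom), drawn upward for mESC+ and downward for mESC−, against the distance of its summit from the gene's start (x axis, kb). Lines with no counterpart are regions of 1 list: 10 of 54 around Pou5f1 and 23 of 46 around Sox2. Triangles mark regions with a composite match, and the yellow band is the dynamic enhancer region of Sox2.

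Of the 5 strongest regions around Pou5f1, 4 were lower in mESC−. The highest, 80.2 kb upstream in an exon of H2-Q6 (chr17:35425582-35426096), had a fold enrichment of 17.8 in mESC+ and 14.3 in mESC−, a ratio of −0.22. A region 71.0 kb upstream had 14.02 and 11.7 (ratio −0.17), and one 65.9 kb upstream had 13.6 and 9.75, a ratio of −0.39 and the largest downward one among the 34 strongest regions of the circuit. The even one was a region 15.4 kb upstream (chr17:35490333-35490724), which had 11.2 and 10.7 (ratio 0.02). The fifth, in an intron of Cchcr1 20.8 kb downstream, had 12.02 and 8.69 (ratio −0.38). The window holds 10 other protein-coding genes, and 6 of its 54 regions had their nearest protein-coding start at Pou5f1. In all, 171 of 469 regions were nearest to the gene of their own window. Across windows 252 summits lay outside annotated genes, 135 in introns and 82 in exons.

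Over all windows, 18 of the 34 strongest regions were lower in mESC− and 16 higher, with a median ratio of −0.02 and a range from −0.39 to 0.36. The highest of the circuit in both states lay in the Dppa4 window, 72.2 kb downstream and nearest to Dppa2, with 24.8 in mESC+ and 21.1 in mESC−. It was followed there by regions 90.1 kb (18.8 and 18.2) and 83.2 kb downstream (17.97 and 15.3). In the Tcl1 window a region 99.6 kb upstream had 19.9 in both states, and those 96.04 kb downstream and 36.8 kb upstream had 14.6 and 13.8 and 12.6 and 11.6. In the Utf1 window, where 2 of the strongest lay in introns of Kndc1, the values were 20.6 and 18.3 at 12.9 kb, 19.1 and 18.9 at 109.6 kb and 14.6 and 14.2 at 28.0 kb upstream. These 3 windows held the highest peaks of the circuit in mESC+. For Dppa3, which shares its window with Nanog and Gdf3, regions 7.17 kb downstream (11.67 and 14.03) and 103.6 kb upstream (15.8 and 18.8) had the largest upward ratios of the 34, 0.36 and 0.34, and one 93.2 kb upstream had 17.1 and 16.5. In the Tfap2c window the values were 16.4 and 17.5 at 58.4 kb downstream, 12.9 and 13.5 at 64.4 kb downstream and 15.2 and 13.4 at 109.2 kb upstream. In the Sall4, Dppa5a and Lin28a windows most of the strongest regions were lower in mESC−. Around Sall4 the values were 18.9 and 18.1 at 59.2 kb downstream, 13.6 and 11.1 at 24.05 kb upstream, and 13.4 and 10.5 at 103.4 kb upstream (ratio −0.27). Around Dppa5a they were 16.8 and 14.2 at 27.6 kb downstream, 15.5 and 14.1 at 27.6 kb upstream, and 14.95 and 13.2 at 89.01 kb upstream, all with ratios below 0. Around Lin28a they were 15.2 and 15.1 at 17.8 kb downstream, 16.5 and 13.5 at 35.7 kb downstream (ratio −0.20), and 15.7 and 11.97 at 83.7 kb upstream (ratio −0.30).

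**Figure D4:**
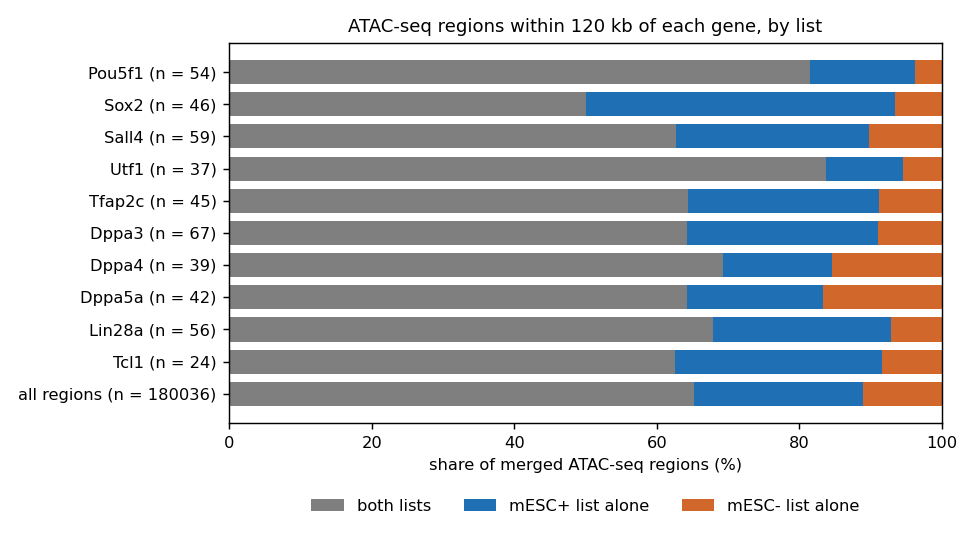
Share of merged ATAC-seq regions (x axis, %) in both lists, in the mESC+ list alone and in the mESC− list alone, for the window of each gene and for all 180036 regions, with the number of regions beside each name. Sox2 has the largest share in mESC+ alone (43.5%) and Utf1 the smallest (10.8%).

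The dynamic enhancer regions, those listed with a CRUP probability that differs between the states, numbered 327 in all, and 2 of them lay in the windows. A region higher in mESC+ lay within 120 kb of 2.46% of protein-coding genes, and among the 10 only of Sox2. A region higher in mESC− lay within 120 kb of 3.01%, and among the 10 only of Sall4. The other 8 genes, Pou5f1 among them, had none. A probability, between 0 and 1, is that of an active enhancer given the 3 histone marks.

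The Sox2 region (chr3:34654501-34655400, 900 bp) began 4.10 kb and ended 5.00 kb downstream of the Sox2 start, in an intron of Sox2ot. CRUP gave it 0.883 in mESC+, and it was listed at 0 in mESC−. No ATAC-seq peak of either list lay inside it. The nearest accessible region, 359 bp away, was the composite region described above, shared by both lists and higher in mESC− (5.73 and 6.43). The histone-based call and the fold enrichment next to it thus differed in direction. The −log10 p of that accessible region was nearly even, with 19.4 in mESC+ and 19.2 in mESC−, so its direction depends on the measure. The dynamic region itself held a match with 3 mismatches, as did 52 of the 327 dynamic regions (15.9%), and it is shown for comparison with the Sox2 element above.
Sox2, 4.18 kb downstream, chr3:34654535-34654629 (+): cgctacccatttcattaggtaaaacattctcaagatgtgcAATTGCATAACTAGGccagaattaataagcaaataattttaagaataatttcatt

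The Sall4 region (chr2:168850601-168854500, 3900 bp) lay 83.4 to 87.3 kb upstream of the Sall4 start, outside annotated genes, and Sall4 had the nearest protein-coding start. It was listed at 0 in mESC+ and had 0.941 in mESC−. It held 3 accessible regions. A peak at chr2:168851548-168851827 was in mESC− alone, with a fold enrichment of 5.82 (percentile 37.3), and so was a weaker one at chr2:168853650-168853784 with 3.79 (percentile 4.43). The third, at chr2:168854069-168854201, was in both lists with 4.75 and 4.65. Here the histone-based call and the peaks of mESC− alone pointed the same way, but the shared region was even, with a centered log2 ratio of 0.06. The absence of a peak in mESC+ is not a measured gain in mESC−.

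No composite match lay in the Sall4 dynamic region. It held 9 exact copies of the hexamer AGGTCA, on both strands together, or 2.31 per kb. The median over all dynamic regions was 0.769 per kb, 236 of them (72.2%) held at least 1 copy, and 27 held more per kb. Of the 9 copies, 6 stood at steps of 33 bp in a tandem repeat that reaches into the shared peak. The repeat is shown on the minus strand with the 6 copies in capitals.
Sall4 dynamic region, chr2:168853899-168854089 (−): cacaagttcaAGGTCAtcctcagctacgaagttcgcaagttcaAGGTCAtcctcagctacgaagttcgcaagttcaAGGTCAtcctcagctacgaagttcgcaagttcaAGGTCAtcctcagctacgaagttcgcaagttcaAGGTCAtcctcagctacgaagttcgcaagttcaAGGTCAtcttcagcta

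The RNA-seq list held 2189 genes. The rule by which its rows were chosen is not given in the sources used here, so a missing row says nothing about a gene's expression, and the RNA change at 4 h was not analysed here. Of the 10 genes 2 were listed, Sox2 and Tfap2c, against 9.04% of protein-coding genes. The authors' mean normalized count over all 6 libraries was 8169 for Sox2 and 2244 for Tfap2c. Per kilobase of annotated exon these levels were 3971 and 610, at percentiles 98.9 and 82.3 of the listed genes. Both are thus abundant among the listed genes, with Sox2 the higher. Pou5f1, Sall4, Utf1, Dppa3, Dppa4, Dppa5a, Lin28a and Tcl1 had no row.

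In a list of 28 other genes of the pluripotency network, 17 were listed (60.7%), against 9.04% of protein-coding genes. Those with the highest mean normalized count were L1td1, Zfp42, Tdgf1, Sall1 and Fbxo15, and per kilobase of exon they had 12759, 9813, 4979, 1778 and 2442. At the promoters of that network, 25 of 28 genes had a peak in both lists, against 66.4% of all protein-coding genes. Lin28b had one in mESC− alone, and Nr5a2 and Lefty2 had one in neither. The same 66.4% is the background of the marker counts that follow. As a check of the cell type, all 8 embryonic stem cell marker genes had a promoter peak in both lists. Promoters of other lineages were open as well, with 4 of 6 fibroblast, 5 of 6 primitive endoderm, 4 of 5 trophoblast and 5 of 5 neural genes in both lists, so promoter peaks alone do not tell these cell types apart.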

How the data were processed

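The data comprised 26 libraries of E14 cells. Of these, 10 ChIP-seq libraries of further marks stayed unused. Groups were taken from the treatment labels. The members, gene lists and tests were chosen with earlier results of these data known. Reads were mapped to GRCm38, and the submitters' processing notes name BWA, STAR 2.5.1b, SAMtools, MACS2 and DESeq2 without their roles. MACS2 parameters are not given in the sources used here.

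For ATAC-seq, the authors ran peak calling library by library. Each deposited list has for every peak its fold enrichment (a ratio over local background), −log10 p and −log10 q values and the summit offset. For CRUP, the deposited table has, for either state, the probability of an active enhancer as a fraction from 0 to 1. For RNA-seq, the authors' table gives a mean normalized signal over all 6 libraries. That table also holds a log2 fold change, its standard error, a test statistic and p-values, and the CRUP table the lowest p-value and a cluster of each region; these belong to the authors' own comparisons and were not used. Depth per library is unknown, so no depth-based precision can be given.

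Here peaks of both lists were merged where they shared at least 1 bp, and the largest fold enrichment per list was taken. Percentiles are ranks within a list. Log2 ratios were centered on the median of all shared regions, and 2-fold was called changed. Windows reached 120 kb beyond a gene's ends (GENCODE annotation of GRCm38), and promoters 1000 bp to either side of the principal start. All 327 dynamic regions and all 304809 peaks on named chromosomes fell within the chromosome lengths of GRCm38.p6. Motifs were searched on both strands in 300 bp around the stronger summit. Shares carry exact (Clopper-Pearson) 95% intervals. No test was possible with 1 library per state. The result of 1 marker list is not reported here. Of the listed genes 2188 of 2189 matched the annotation. Regions named are all promoter regions, the 3 strongest others per window (5 for Pou5f1 and Sox2), regions of 1 list at percentile 75 or more, dynamic regions and the 3 largest ratios in each direction. Regions with a composite match, the strongest regions of 1 list, the regions at 106 to 111 kb from Sox2 and the AGGTCA search were singled out after the values were seen. The merging, window and motif functions passed 12 of 12 checks on simulated data. Python 3.11.15, pandas 2.3.3 and SciPy 1.17.1 were used.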

Additional observations from a re-analysis of the deposited data

How the results depend on the processing

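With the 50% reciprocal overlap, peaks kept apart were shared in 55.3% in place of 67.0%. Under the other 5 alternatives (peaks with −log10 q of at least 10, the 50000 highest peaks, the mESC+ list shortened to the length of the mESC− list, 50 kb windows, 120 kb around the start) the share was 62.9% to 70.1%, within the counting interval. With −log10 q of at least 10 it was 62.9%, against 67.2% of all regions. Among the 50000 highest peaks it was 67.5% against 68.0%, and with the shortened list 70.1% against 66.7%. The circuit thus lay below all regions in some settings and above in others. For the 50% overlap the share of all regions was not counted. The shortened list was chosen after seeing the data, as was a ranking of the strongest regions by the higher of both percentiles, under which 18 of 34 were again lower in mESC− and 16 higher. Without centering, the median log2 ratio of the shared regions was −0.074 in place of 0.02, since all regions together had a ratio of 0.937 between the states. With ratios of −log10 p in place of fold enrichment, 4 of 314 shared regions were at least 2-fold lower and 9 higher, in place of 1 and 0. Such a fold is one of −log10 p. The share of all shared regions past it was not counted here, so these counts have no background. The number of genes with a promoter peak in both lists was 6 to 8. Within 50 kb, 1 dynamic region was left, that of Sox2, in place of 2. Of all annotated genes, 3.95% were listed, in place of 9.04% of protein-coding genes. With at most 2 mismatches, 0.640% of regions held a composite match (0.132 to 1.86), against 0.553% of all regions. This stood in place of 2.35% against 2.96%, so the order changed with the setting, each time within the counting interval. No paired analysis was possible because values of single RNA-seq libraries were not used here and accessibility was measured in 1 library per state, and for the same reason no replicate could be left out. What depth limits cannot be stated, since read totals are unknown. A peak called in 1 list alone can lie just under the threshold in the other.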

Other observations

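By distance from the start of the circuit's gene, the share of regions in both lists was 70.3% under 10 kb (74 regions), 67.1% between 10 and 50 kb (158 regions) and 65.8% beyond (237 regions), and these differed by less than their counting intervals. The median centered log2 ratio was 0.11 under 10 kb, −0.003 between 10 and 50 kb and 0.01 beyond.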
